A study of Mus musculus with 8 samples.

Results

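The genes described here are the calcium/calmodulin-dependent protein kinases (CaM kinases) and the small inhibitor proteins of CaM kinase II, in round spermatids of mice whose chromatin reader Brdt lacks its first bromodomain. The list named 10 genes: the inhibitors Camk2n1 and Camk2n2, the CaM kinase II genes Camk2a, Camk2b, Camk2d and Camk2g, the kinases Camk1 and Camk4, and the upstream kinases Camkk1 and Camkk2. All probe sets that the array annotation assigns to exactly 1 gene, that gene being on the list, were taken. This gave 30 of 45037 probe sets, from 9 of the 10 genes, and Camkk1 was not analysed here. The family was chosen by the mutant minus control difference of Camk2n2, which is among the largest falls of the mutant, so the mutant and control values of Camk2n2 are given as a description and without a test.

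Total RNA came from round spermatids, the haploid cells that follow meiosis, sedimented through a bovine serum albumin gradient of 2% to 4%. The BrdtΔBD1 mutant and the control mice were both of the 129 Sv/Ev strain and 2 to 4 months old, and the labels give no further allele or agent. Each group had 4 Affymetrix arrays, each hybridised with RNA from cells pooled from 7 animals, so no value belongs to a single animal. Values are the authors' normalized log2 intensities, in which a step of 1 is a doubling of signal.

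CaM kinases are serine/threonine kinases that are switched on when calcium-loaded calmodulin binds them. The CaM kinase II enzymes form multi-subunit holoenzymes that can phosphorylate themselves and stay active after calcium falls. The proteins encoded by Camk2n1 and Camk2n2 bind the active form and block it. Camk1 and Camk4 are in turn activated by the kinase kinases Camkk1 and Camkk2. The Camk4 gene is known in the testis for a further product, calspermin, a calmodulin-binding protein without kinase activity that is made from an internal promoter in post-meiotic germ cells. Camk4 has also been linked to the phosphorylation of protamine in elongating spermatids.

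The stretch of 250 bases before the annotated start of Camk2n2 is shown because the results turn on this gene. That of Camkk2, a member whose brightest probe set had a difference above 0 that did not pass the test, is printed beside it. Both are RefSeq sequences of the reference strain C57BL/6J in the build GRCm38.p6, not of the 129 mice, on the minus strand and written 5′ to 3′ toward the start, Camk2n2 at chr16:20621279-20621528 and Camkk2 at chr5:122779411-122779660. Capitals mark matches on either strand to 5 motifs: the cAMP response element TGACGTCA, its half-site TGACG, the TATA box TATAAA, the CCAAT box CCAAT and the GC box GGGCGG.
Camk2n2: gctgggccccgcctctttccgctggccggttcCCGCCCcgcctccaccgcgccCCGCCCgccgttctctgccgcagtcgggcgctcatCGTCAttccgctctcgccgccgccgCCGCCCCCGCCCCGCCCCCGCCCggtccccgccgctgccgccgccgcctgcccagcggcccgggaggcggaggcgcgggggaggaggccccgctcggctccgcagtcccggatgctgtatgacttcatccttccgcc
Camkk2: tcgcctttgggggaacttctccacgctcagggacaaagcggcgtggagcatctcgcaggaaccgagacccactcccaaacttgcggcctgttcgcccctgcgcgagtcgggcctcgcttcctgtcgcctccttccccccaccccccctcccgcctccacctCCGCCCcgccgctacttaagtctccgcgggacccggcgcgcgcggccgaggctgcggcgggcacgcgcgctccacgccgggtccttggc
The Camk2n2 stretch held 6 GC boxes, of which 4 adjoin or overlap one another and begin between 137 and 120 bases before the start, and 1 half-site of the cAMP response element 162 bases before it. The GC content was 80% with 39 CpG dinucleotides. The Camkk2 stretch held 1 GC box, with a GC content of 72.4% and 32 CpG dinucleotides. The medians over the 32851 stretches of the same length in the table were 52.4% and 6. A GC box was present in 32.7% of all stretches and a half-site in 17.8%. The full cAMP response element (1.55% of all stretches), the TATA box (12.4%) and, in these 2 stretches, the CCAAT box (33.8%) were not matched; the full element contains the half-site on both strands. Sequences were in the table for 6 of the 10 listed genes. A GC box was matched in 5 of these 6, a half-site in 3 (Camk1, Camkk1 and Camk2n2) and a CCAAT box in Camkk1. These matches describe letters and were not tested as binding sites.

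Array medians lay between 3.10 and 3.14, and pairs of arrays had r from 0.970 to 0.994. The Gapdh control probes, read at the 3′ and the 5′ end of the transcript as a sign of RNA degradation, differed by 1.68 and 2.05 (log2) on control arrays 1 and 3 and between 0.33 and 0.94 on the other 6 arrays. Round spermatid markers had similar list means in both groups, 13.50 to 13.80 on mutant and 13.51 to 13.75 on control arrays over 14 of 14 genes, and the targeted gene Brdt read 10.67 ± 0.33 in mutant and 12.08 ± 0.25 in control arrays (SD, n = 4 each) with a probe set that may lie inside or outside the deleted domain. The Sertoli cell list stood higher on mutant arrays, with means of 6.08 to 7.76 against 5.03 to 5.91 over 17 of 18 genes, and summed linear signals of 6381 to 24201 against 1941 to 5343. Among the defining markers of other cells, Sox9 read 3.80 and 3.80 in mutant and control arrays, Amh 1.95 and 1.97, Wt1 5.10 and 3.95, Cyp17a1 of Leydig cells 3.36 and 2.31, and Ptprc of blood cells 2.64 and 2.64. Means of the spermatogonia markers (8 of 9 genes) were 5.07 to 6.02 against 4.28 to 5.05, those of spermatocyte markers (10 of 10) 9.50 to 10.38 against 9.15 to 9.59, those of Leydig cell markers (5 of 8) 2.91 to 3.69 against 2.69 to 3.02, and those of peritubular, vascular and blood cell markers (11 of 12) 3.24 to 3.56 against 3.17 to 3.38.

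Camk2n2, the inhibitor of CaM kinase II that is otherwise best known from brain, was bright in control and dim in mutant spermatids. Its single probe set, 1429204_at, read 7.56, 7.78, 7.66 and 8.05 on control arrays 1 to 4 and 3.75, 3.40, 4.01 and 4.21 on mutant arrays 1 to 4. The groups were far apart: the lowest control array lay above the highest mutant array, and the gap was wider than the spread within either group. Means were 7.76 ± 0.21 in control and 3.84 ± 0.35 in mutant arrays (SD, n = 4 each), a log2 difference of -3.92 and a 15.1-fold lower signal. Among all 45037 probe sets this difference had rank 1 of the falls. The fold is that of the deposited values. The mutant mean of 3.84 lies below 4, as did the means of 68.1% of all probe sets. How much of the mutant reading is background of the probe set is not known here, so the fold is no exact ratio of RNA. In these bulk samples, fewer cells with the transcript and less transcript per cell cannot be told apart.

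The level of Camk2n2 was set beside the measures in which the arrays differed. Mutant array 2 had the lowest Sertoli mean of the mutant group, 6.08, closest to the highest control value of 5.91, and it had the lowest Camk2n2 value, 3.40. The Sertoli means of the 2 groups do not overlap, and neither do the spermatogonia means, 5.07 to 6.02 in mutant and 4.28 to 5.05 in control arrays. These measures and the genotype therefore cannot be told apart. The part of Sertoli signal, of spermatogonia signal and of RNA degradation in the Camk2n2 difference was not tested. Control arrays 1 and 3, with the large gap between 3′ and 5′ controls, read 7.56 and 7.66 for Camk2n2, and the other controls read 7.78 and 8.05. Without control arrays 1 and 3 the log2 difference of Camk2n2 was -4.07, beside -3.92 with all arrays.

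**Figure D1:**
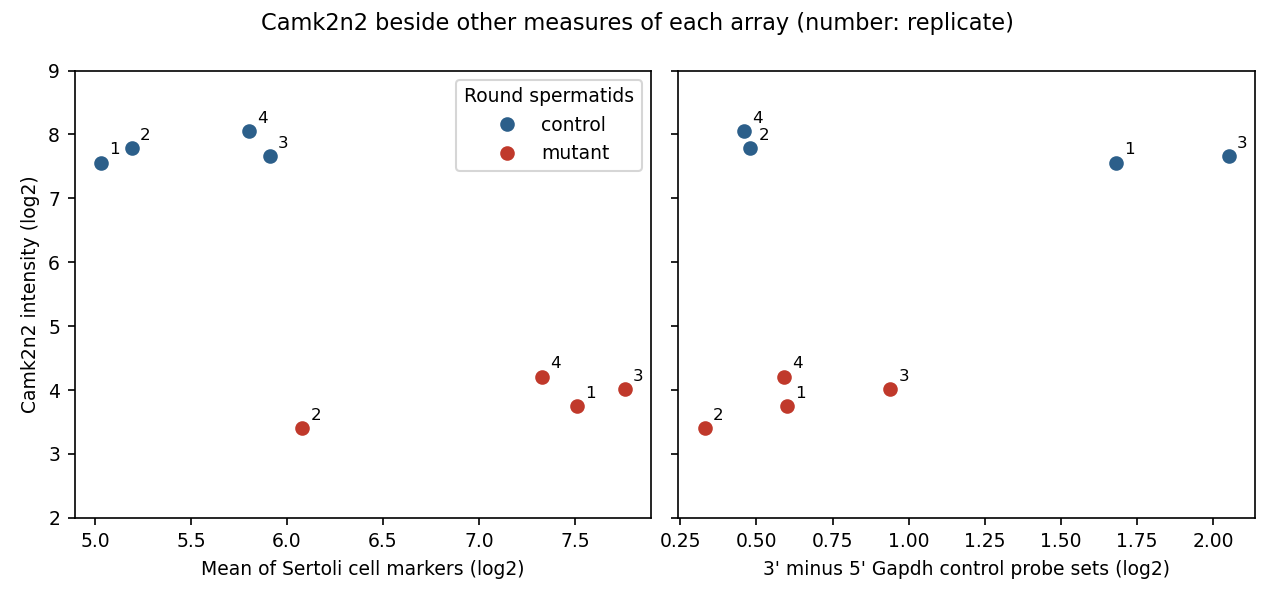
Camk2n2 intensity (log2, vertical axis) of each array against the mean of the Sertoli cell markers (left, log2) and against the gap between the 3′ and 5′ Gapdh controls (right, log2). Blue points are control and red points mutant arrays, numbered by replicate; all control arrays lie between 7.56 and 8.05 and all mutant arrays between 3.40 and 4.21. The groups do not overlap on the Sertoli axis either, at 5.03 to 5.91 in control and 6.08 to 7.76 in mutant arrays.

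Camk2n1, the other inhibitor gene of the same kinase, was measured by 2 probe sets, whose mutant signals were 1.31-fold and 1.69-fold lower and did not pass the test. The brighter one, 1456609_at, read 9.54, 8.85, 8.53 and 9.38 on control arrays 1 to 4 and 8.77, 8.53, 8.66 and 8.79 on mutant arrays 1 to 4. The groups overlapped, and control array 3 was as low as the lowest mutant array. The log2 difference was -0.39 (SE 0.21, 95% interval -0.87 to 0.10, limma adjusted p = 0.451 over all probe sets). The second probe set, 1440455_at, read 6.94, 5.67, 6.51 and 6.78 in control and 6.02, 5.16, 5.82 and 5.89 in mutant arrays. Here the mutant array was the lower one of each of the 4 replicate numbers, yet control array 2 lay below 3 of the mutant arrays. Its log2 difference was -0.75 (SE 0.29, 95% interval -1.42 to -0.09, a 1.69-fold lower signal), with a limma adjusted p of 0.265. With the replicate number as a block the same difference had an SE of 0.11 and a limma adjusted p of 0.0167. Arrays that share a number deviated together from their group means, with r of 0.40 to 0.54, and this was the 1 family call that the block added. The mean of both Camk2n1 probe sets gave -0.57 (SE 0.23, limma adjusted p = 0.205 over genes). The difference between Camk2n1 and Camk2n2 was not tested, as Camk2n2 had been picked for its fall.

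**Figure D2:**
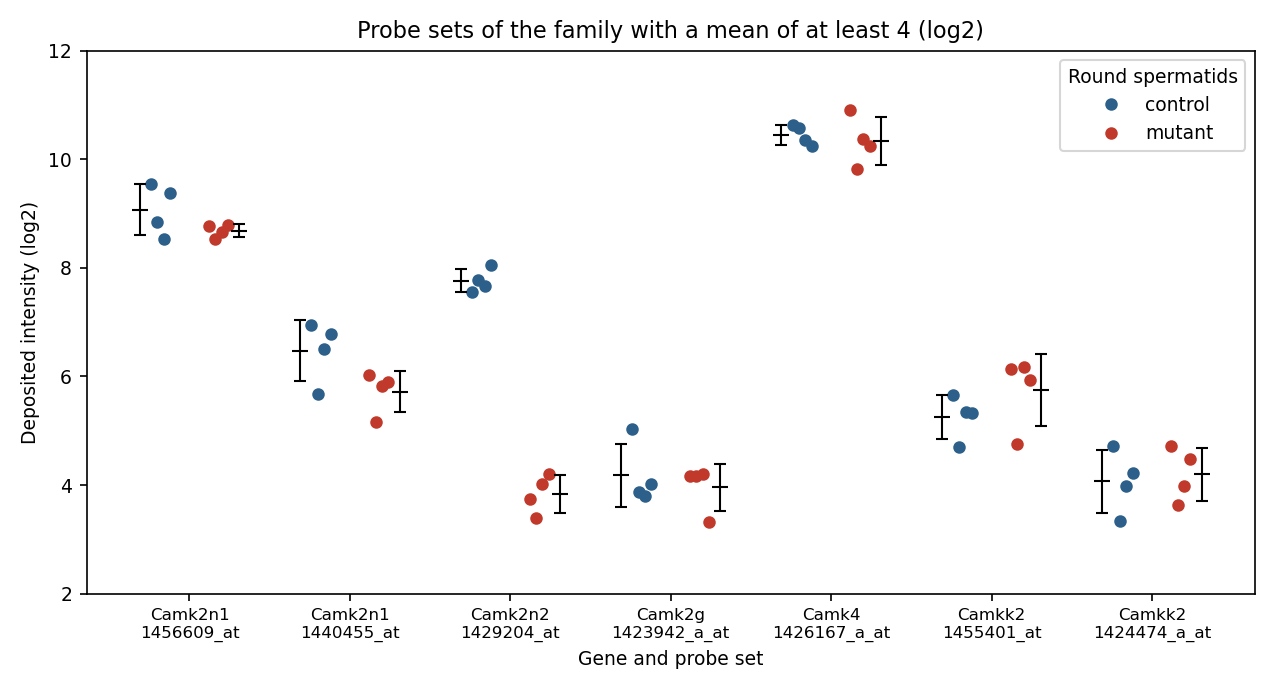
Deposited log2 intensity of the 7 family probe sets whose mean over all arrays was 4 or more, 1 point per array, blue for control and red for mutant; the black bars beside the points are mean ± SD (n = 4). The 2 groups lie apart for Camk2n2, at 7.56 to 8.05 against 3.40 to 4.21, and overlap for the other 6 probe sets.

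The CaM kinase II genes, which encode the enzyme that both inhibitors block, gave low signals on these arrays in both groups. Their 16 probe sets had means from 2.09 to 4.07, and 15 of them were below 4, as were 68.1% of all probe sets. Only the Camk2g probe set 1423942_a_at had a mean above 4, at 4.07. It read 5.03, 3.87, 3.79 and 4.02 in control and 4.16, 4.16, 4.20 and 3.31 in mutant arrays. Control array 1 was the highest and mutant array 4 the lowest, with the others between 3.79 and 4.20, and the log2 difference was -0.22 (SE 0.31, 95% interval -0.92 to 0.48). The second Camk2g probe set, 1423941_at, read 4.03, 3.38, 3.49 and 3.65 in control and 4.03, 3.97, 3.96 and 3.77 in mutant arrays, a difference of 0.30 (SE 0.15, 95% interval -0.04 to 0.63). The Camk2g probe sets therefore differed in sign, each with an interval that holds 0.

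Camk2d, which encodes the delta subunit that many tissues express, was read by 7 probe sets with means from 2.09 to 3.56. The brightest, 1427763_a_at, read 3.27, 3.63, 3.22 and 3.48 in control and 3.63, 3.57, 3.72 and 3.91 in mutant arrays, a difference of 0.31 (SE 0.13, limma adjusted p = 0.288). The groups overlapped through control array 2, and the other 6 Camk2d probe sets had differences between -0.16 and 0.07. Camk2a and Camk2b, the subunits typical of neurons, had means of 2.39 to 2.91 over 6 probe sets and 2.98 for 1. The differences of Camk2a ran from -0.34 to -0.01, all below 0, and that of Camk2b was -0.09 (SE 0.14). Of the 16 probe sets, 0 passed the threshold, an adjusted p under 0.05 in limma, which 0.702% of all probe sets passed lower and 0.717% higher. The smallest adjusted p was 0.286 for a Camk2a probe set with readings between 2.04 and 2.72. At an unadjusted p under 0.05 there were 2, where 15.1% of all probe sets had one, a share near the background. Absence of signal at this level is no measure of absence of the RNA, since each probe set has its own background.

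Camk4 gave the brightest reading of the family, in 1 of its 5 probe sets. The probe set 1426167_a_at read 10.63, 10.57, 10.36 and 10.24 in control and 10.90, 9.83, 10.38 and 10.25 in mutant arrays. Mutant arrays held both the highest and the lowest value, and the means were 10.45 ± 0.18 and 10.34 ± 0.44 (SD, n = 4 each). The log2 difference was -0.11 (SE 0.21, 95% interval -0.59 to 0.37, limma adjusted p = 0.865). The other 4 Camk4 probe sets read between 2.44 and 3.24 on all arrays, with differences from -0.18 to -0.03. The probe sets of this gene disagree in level, and which of its products, the kinase or calspermin, each one reads is not known here. Camk1, a kinase of similar activation that acts alone as a monomer, was dim in both probe sets, with values between 2.42 and 3.40 and differences of 0.07 (SE 0.14) and -0.10 (SE 0.10). The name of one of them, 1417605_s_at, marks probes that may also match other transcripts.

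Camkk2, the kinase kinase that activates Camk1, Camk4 and also AMP-activated protein kinase, was read by 4 probe sets. The brightest, 1455401_at, read 5.65, 4.70, 5.35 and 5.32 in control and 6.13, 4.76, 6.18 and 5.94 in mutant arrays. The mutant array was the higher one of all 4 replicate numbers, while array 2 was the lowest in both groups and made the groups overlap. The difference was 0.50 (SE 0.33, 95% interval -0.25 to 1.25), with a limma adjusted p of 0.547. With the replicate block its SE was 0.14 and its limma adjusted p 0.0974. The probe set 1424474_a_at also had its lowest value on array 2 of each group, 3.34 in control and 3.63 in mutant arrays, and differed by 0.13 (SE 0.32). The remaining 2 probe sets had differences of -0.04 and 0.00. Array 2 was likewise the lowest of each group for Camk2n1 1440455_at and, in mutant arrays, for Camk2n2 and the bright Camk4 probe set.

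**Figure D3:**
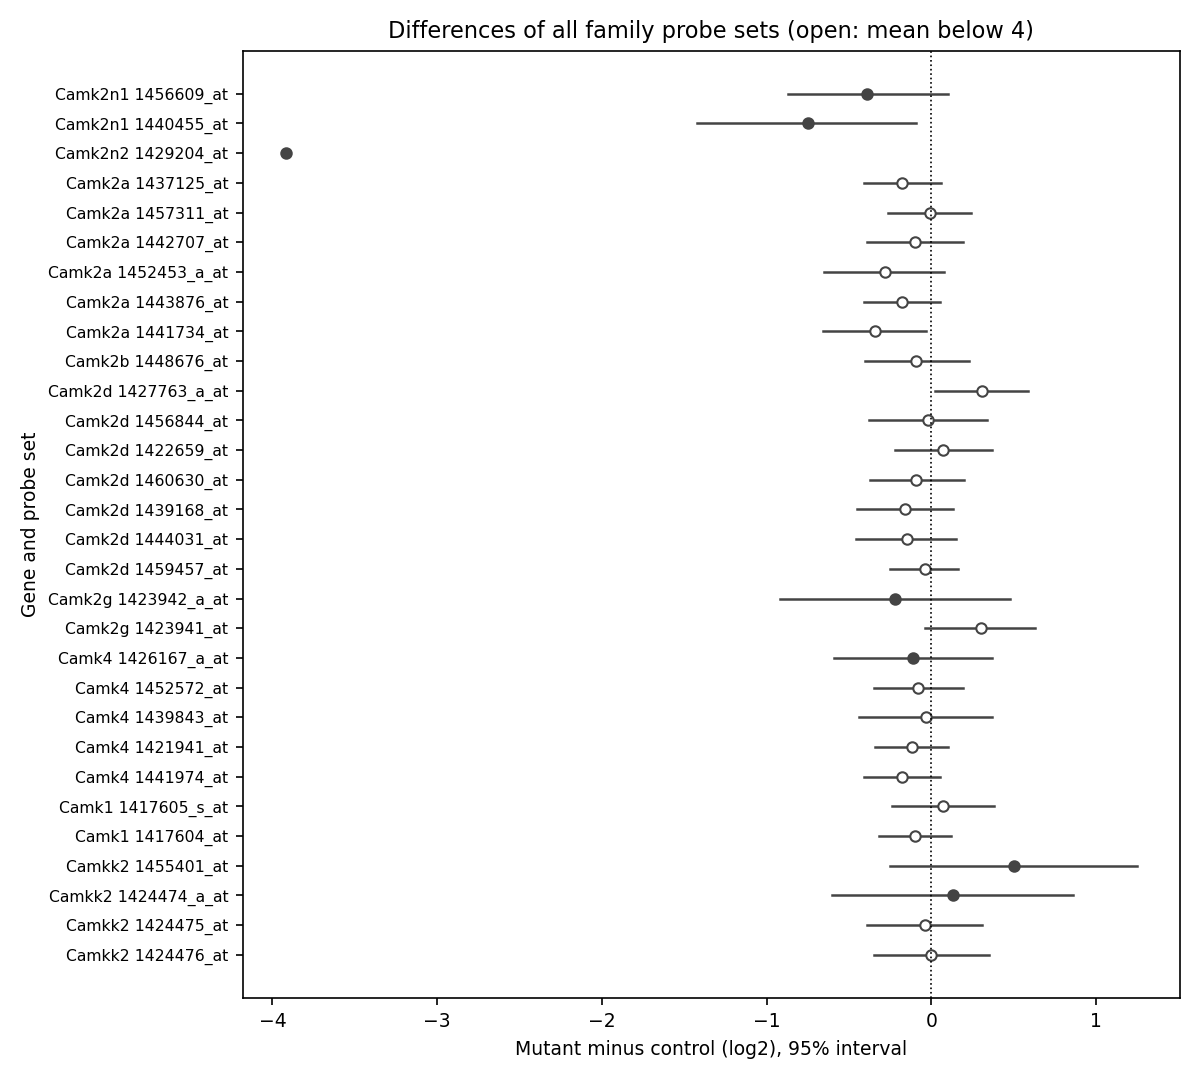
Mutant minus control difference (log2, horizontal axis) of each of the 30 family probe sets, with the 95% interval of the limma fit for all but Camk2n2; filled points have a mean of at least 4 over all arrays and open points a lower mean. The point of Camk2n2 lies at -3.92 and the other 29 lie between -0.75 and 0.50.

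Counted over the family, 1 of 30 probe sets passed the threshold lower in mutant arrays, that of Camk2n2, where 0.702% of all probe sets did, and 0 passed higher, where 0.717% did. This count holds the gene for which the family was picked, and nothing is read from it. Among the other 29 probe sets 0 passed in limma, and 3 had an unadjusted p under 0.05, where 15.1% of all probe sets had one. Groups did not overlap for 1 of 30 probe sets, again Camk2n2, against 9.48% of all. The median difference of the family was -0.09 (log2), beside -0.03 over all probe sets. Differences were below 0 for 24 of 30, a larger share than the 24995 of 45037 over all probe sets, which was not tested. Of the 30 probe sets, 23 had a mean below 4, and these dim probe sets held 19 of the 24, with several from the same gene. With the replicate block 2 passed lower and 0 higher, where 2.50% and 3.92% of all probe sets did. The 2 were Camk2n1 1440455_at and again Camk2n2, the gene for which the family was picked, so nothing is read from this count either.

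Genes next to Camk2n2 on chromosome 16 were examined to describe the region around it. On each side the nearest 5 genes with a probe set of their own were taken in the order of the mouse gene table, each by its brightest probe set. Of the 10, 0 passed lower and 0 passed higher in limma, where 1.31% and 1.04% of all genes did, so that a count of 0 is near the background share. Unadjusted p values under 0.05 were found for 4 of them, where 21.1% of all genes had one. Rounded differences were below 0 for 6 of the 10, with Vwa5b2 at 0.00 not counted, and had a median of -0.11. The gene before it, Alg3, a mannosyltransferase of the glycosylation pathway, differed by -0.17 (SE 0.12), and the gene after it, Ece2, an endothelin-converting enzyme, by -0.20 (SE 0.12), both at readings of 4.17 or less. Psmd2, a proteasome subunit, read 12.20 ± 0.08 in control and 12.09 ± 0.28 in mutant arrays (SD, n = 4 each), a difference of -0.11 (SE 0.14). The ABC protein gene Abcf3 differed by -0.43 (SE 0.13), with all mutant arrays, 10.18 to 10.68, below all control arrays, 10.78 to 11.05, and a limma adjusted p of 0.160. The clathrin adaptor gene Ap2m1 (0.94, SE 0.34), the chloride channel gene Clcn2 (0.72, SE 0.17) and Polr2h, a subunit of the RNA polymerases (0.81, SE 0.27), differed in the other direction. Their limma adjusted p were 0.238, 0.0845 and 0.196. All mutant arrays lay above all control arrays for Ap2m1, 7.62 to 8.24 against 5.91 to 7.54, and for Clcn2, 3.40 to 4.22 against 2.90 to 3.22. Groups did not overlap for 12.6% of all genes. With the replicate block, Clcn2 and Polr2h passed higher (limma adjusted p = 0.0444 and 0.0479) and 0 passed lower, where 5.55% and 4.30% of all genes did. Dvl3 (-0.12), Vwa5b2 (0.00) and Fam131a (-0.27) had intervals that hold 0.

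**Figure D4:**
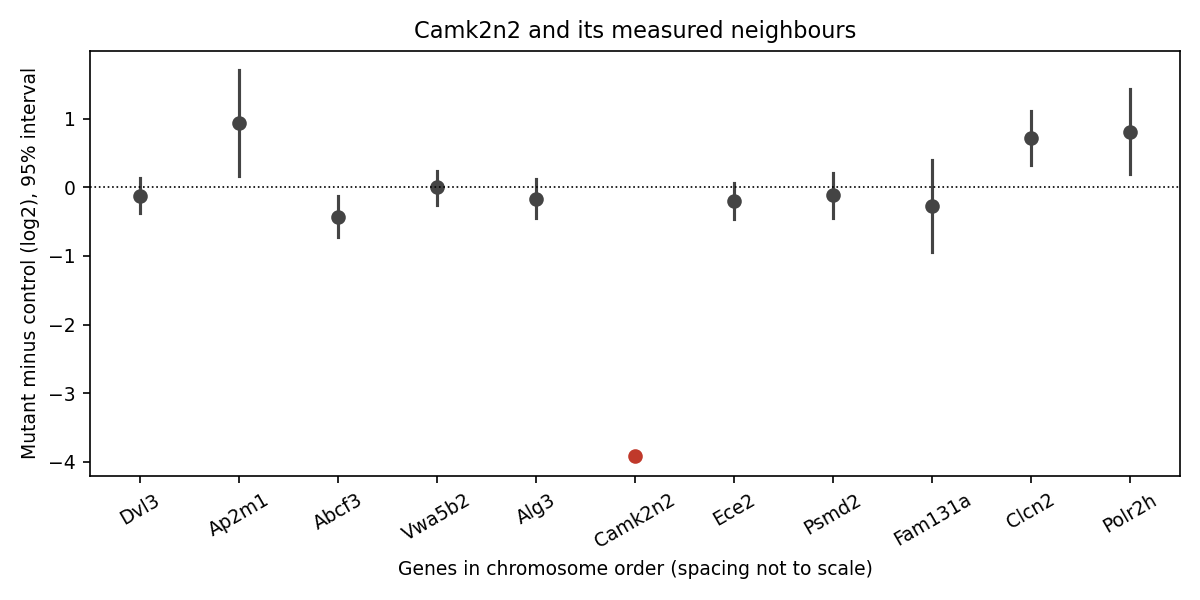
Mutant minus control difference (log2, vertical axis) for Camk2n2 (red, no interval) and, with 95% intervals, the 5 measured genes on either side of it, in chromosome order and not to scale. Camk2n2 lies at -3.92 and its neighbours between -0.43 and 0.94.

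The genes whose readings followed those of Camk2n2 most closely over the 8 arrays were Elfn1, Crtap, Smpdl3a, Dcbld2 and Csrp2, with Pearson r of 0.991, 0.983, 0.983, 0.981 and 0.980. They were taken from 7815 genes with a mean of at least 5 in the higher group. These r values describe 8 points that fall into 2 groups, and largely restate the group difference by which Camk2n2 was picked. All 5 genes were lower in mutant arrays, and a gene could enter through its control mean alone, as did Dcbld2 with a mutant mean of 4.64. Elfn1, which encodes a leucine-rich transmembrane protein, read 7.59 to 7.82 in control and 4.84 to 5.39 in mutant arrays. Crtap, a collagen-modifying protein gene, read 9.13 to 9.59 and 6.66 to 7.44. Dcbld2, a transmembrane receptor-like gene, read 6.68 to 7.30 and 4.01 to 5.10. An r above 0.95 was found for 64 of the 7815 genes. With each group's mean subtracted, which leaves the spread within groups, r was 0.46, 0.50, 0.11, 0.77 and 0.64 in the same order. The 5 genes were picked by r over these same arrays, so these values only describe them and were not tested.

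Other genes of calcium and calmodulin signalling were described in 7 lists with 67 of 72 genes measured, each gene by its brightest probe set. In limma 0 passed lower and 0 higher, where 1.31% and 1.04% of all genes did. At an unadjusted p under 0.05 there were 18 of 67, where 21.1% of all genes had one, and groups did not overlap for 8 of 67, beside 12.6% of all genes. The median difference was 0.02 (log2), beside -0.02 over all genes. With the replicate block 3 passed lower, Dapk3, Camta2 and Ryr1, and 3 higher, Ppm1f, Ppp3cb and Itpr3, where 4.30% and 5.55% of all genes did.

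Among 16 other relatives of the CaM kinases the smallest p belonged to Dapk3, a death-associated kinase that phosphorylates myosin light chains. It read 6.43, 6.78, 6.00 and 6.82 in control and 5.28, 5.82, 5.57 and 5.57 in mutant arrays. The groups did not overlap, and the difference was -0.95 (SE 0.20, limma adjusted p = 0.0592, and 0.0209 with the replicate block). The second Dapk3 probe set read between 1.74 and 2.24 and differed by 0.00.

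Of the phosphatases that reverse CaM kinase phosphorylation, Ppm1f had the largest difference of these lists. Its brighter probe set read 4.59, 3.76, 3.60 and 3.73 in control and 7.74, 4.52, 5.93 and 6.63 in mutant arrays. Mutant arrays 1, 3 and 4 were above all controls, and mutant array 2 was just below control array 1. The difference was 2.29 (SE 0.59, limma adjusted p = 0.108, and 0.0224 with the replicate block). The Sertoli mean was also lowest on mutant array 2 within that group, at 6.08 against 7.33 to 7.76; its part in the difference of Ppm1f was not tested. The second Ppm1f probe set differed by 0.12 (SE 0.18), and Ppm1e, the other phosphatase of the list, by -0.30 (SE 0.19).

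Calcineurin, the calcium-dependent phosphatase, had 9 of 9 genes measured, with differences from -0.56 to 0.73. Its regulatory subunit gene Ppp3r1 had the smallest p (0.73, SE 0.22, limma adjusted p = 0.158, and 0.0628 with the replicate block). The second Ppp3r1 probe set differed by 0.14 (SE 0.14) with overlapping groups. The catalytic subunit gene Ppp3cb differed by 0.49 (SE 0.16, limma adjusted p = 0.194, and 0.0318 with the replicate block). Among 9 calmodulin and calmodulin-binding genes the smallest p was that of Camta2, a transcription activator, which read 3.40 to 3.70 in control and 2.94 to 3.23 in mutant arrays (-0.47, SE 0.11, limma adjusted p = 0.0792, and 0.0391 with the replicate block).

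The transcription factors Creb1 and Crem, which CaM kinases can phosphorylate, were in a list of 8 measured genes with differences from -0.48 to 0.60. The smallest p was that of Kif17, a kinesin that moves a coactivator of Crem in spermatids. All 3 Kif17 probe sets were lower in the mutant array of each of the 4 replicate numbers, by -0.48, -0.54 and -0.57. Their limma adjusted p were 0.242, 0.131 and 0.0664, and that of the first was 0.111 with the replicate block. The brightest read 11.25 to 11.78 in control and 10.68 to 11.32 in mutant arrays, so the groups overlapped there, while they did not for the other 2. The 7 genes of AMP-activated protein kinase, a target of Camkk2, had differences from -0.21 to 0.43. The highest was that of Prkab1 (SE 0.13, limma adjusted p = 0.158, and 0.12 with the replicate block).

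Calcium release and uptake genes, 16 of 17 measured, had a median difference of 0.06. Ryr1, a calcium release channel, had the smallest p at low readings, 2.88 to 3.53 in control and 2.38 to 2.70 in mutant arrays (-0.73, SE 0.17, limma adjusted p = 0.0833, and 0.0355 with the replicate block). Its second probe set differed by -0.08 (SE 0.09), with overlapping groups. Itpr3, an inositol trisphosphate receptor, read 5.12, 3.75, 4.71 and 4.07 in control and 6.37, 4.39, 5.51 and 5.84 in mutant arrays, a difference of 1.12 (SE 0.44, limma adjusted p = 0.269, and 0.0261 with the replicate block). The mutant array was the higher one of all 4 numbers for Itpr3, and the groups overlapped through array 2 of the mutants.

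**Figure D5:**
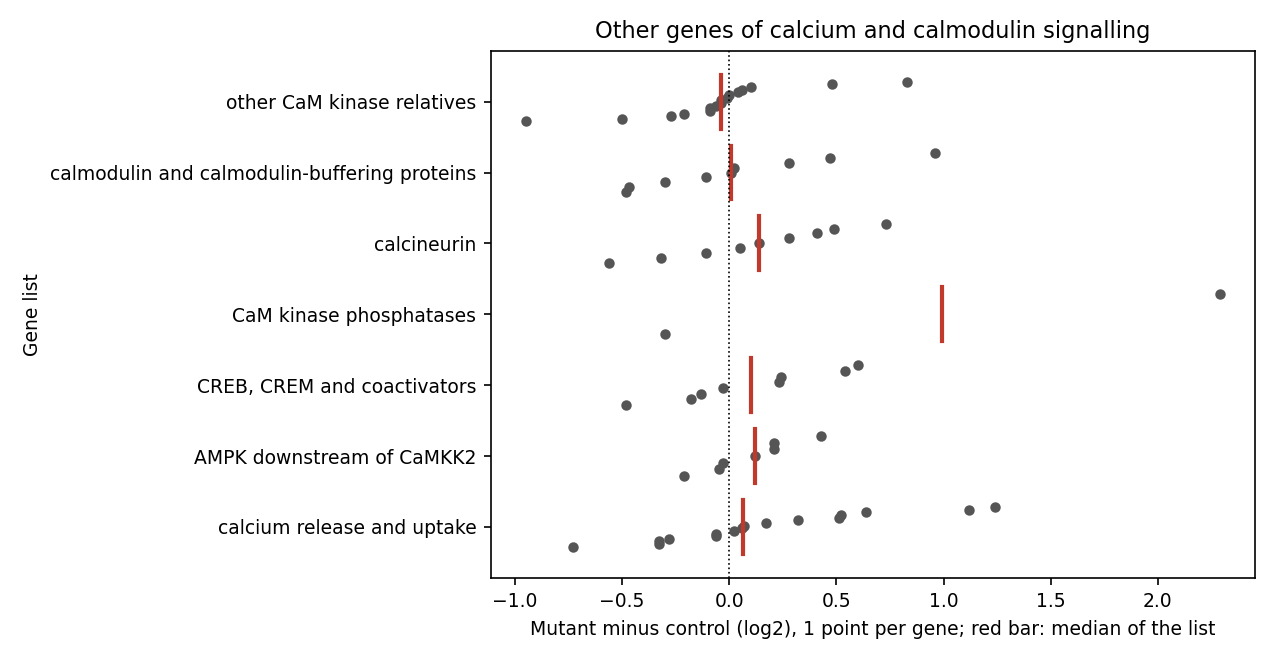
Mutant minus control difference (log2, horizontal axis) of 67 other genes of calcium and calmodulin signalling, 1 point per gene in 7 lists, with the median of each list as a red bar. The points run from -0.95 for Dapk3 to 2.29 for Ppm1f, and the medians of all lists but that of the 2 CaM kinase phosphatases lie between -0.04 and 0.14.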

How the data were processed

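Round spermatid RNA was measured on 8 arrays, 4 per genotype, grouped and numbered by the sample titles. The values the authors deposited are normalized log2 intensities. GCRMA (a sequence-based background correction with normalization) and limma appear in the submitters' processing notes, and their versions and roles are not stated there. Of 45101 rows, 64 control probe sets were left out. The platform annotation gives 1 gene to 34945 probe sets, several to 932 and none to 9160. Current symbols came from a GRCm38.p6 gene table, matched on Entrez identifiers (34741 found). Genotype was the sole term of a model fitted to all 45037 probe sets with limma 3.58.1 in R 4.3.3, two-sided, and p-values were adjusted by Benjamini-Hochberg, with calls made under 0.05. The fit without a block was tested on simulated data in which all arrays varied independently. That simulation does not cover arrays of the same replicate number that deviate together. Genes outside the family are represented by their brightest single-gene probe set. Precision is limited by the 4 arrays per group. The p-values without a block measure the spread between pools of animals, including any part that arrays of the same replicate number share. Blocked p-values measure the spread of the mutant minus control differences between the replicate numbers.

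Arrays with the same replicate number correlated in their deviations from the group means (r = 0.40, 0.43, 0.54 and 0.45 for numbers 1 to 4), each best with its own number, so the numbers were taken to pair the arrays; this rests on the data, as the labels do not say what a number shares. The pairing enters only where blocked values are given.

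The members and lists were chosen with earlier results of these data known. Named were all family probe sets, from each wider list the genes past the threshold or else the gene with the smallest p, 10 neighbours of Camk2n2, and the 5 genes closest to Camk2n2 over the arrays. Ppp3cb, Itpr3 and Atp2c1 were named after their values were seen. Protein sequences were not used here.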

Additional observations from a re-analysis of the deposited data

Results flagged for a closer look

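Single arrays that stood apart within their group of 4, by the gap to the nearest other array relative to the group's range, were found for 6 of 118 groups examined, where chance gives about 1 in 20. The Camk2g probe set 1423942_a_at read 3.31 on mutant array 4, beside 4.16 to 4.20 on the other mutant arrays. The Camkk2 probe set 1424475_at read 3.17 on mutant array 2, beside 3.73 to 3.79. Ppm1f 1454934_at read 4.59 on control array 1, beside 3.60 to 3.76. The other 3 were dim probe sets: Camk2a 1457311_at at 2.62 on control array 3 (2.82 to 2.85 on the others), Camk2d 1459457_at at 2.19 on mutant array 2 (2.02 to 2.04) and Dapk3 1456496_at at 2.24 on control array 1 (1.89 to 1.93).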

How the results depend on the processing

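The log2 difference of Camk2n2 ran from -4.07 to -3.77 over 16 alternatives, a description only, since the gene was picked for its fall and the gap between its groups fixes the direction. Of the other 29 family probe sets, Camk2n1 1440455_at passed under 1 alternative, the replicate block (-0.75, adjusted p = 0.0167 in limma, up to 0.642 under the others). This made 2 family probe sets lower, and the remaining 28 passed under none. By rounded differences, 10 changed sign under some alternative without passing. Camk2d 1427763_a_at is among these 10 only through the mean over all Camk2d probe sets (-0.01), not through its own readings. The count of 10 cannot hold Camkk2 1424476_at, which rounds to 0.00 in the main fit and ran from -0.18 to 0.08 over the alternatives. The block gave 1127 lower and 1767 higher probe sets over the whole table against 316 and 323, 3 lower and 3 higher wider pathway genes against 0 and 0, and 2 higher neighbours against 0; it changed no other family call. Leaving out 1 array gave 115 to 387 lower and 74 to 936 higher probe sets, the lowest without mutant array 3 and the highest without mutant array 2. Lower counts moved by over 1.5 times also without control arrays 1, 3 and 4 (146, 152 and 130), and higher counts without mutant array 1 (157) and control arrays 1 to 4 (100, 99, 112 and 87). Leaving out 1 array gave 0 to 1 lower and 0 to 2 higher pathway genes. Without control arrays 1 and 3 there were 30 lower and 5 higher probe sets. A second quantile normalization gave 587 lower, a minimum mean of 4 gave 533 higher, and trend with robust settings 499 higher; the cause was not tested. The pathway call without control array 3 was Dapk3; those without mutant array 2 were Dapk3, Ppm1f and Atp2c1. With 1 lower each, Dapk3 passed at a minimum mean of 4 and with 1 brightest probe set per gene, Camta2 with the mean of each gene's probe sets, and Ryr1 with trend and robust settings. Dim signal limits most CaM kinase II probe sets.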
